A study of Homo sapiens with 8 samples.

Results

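The Krüppel-like factors (KLFs) are zinc-finger transcription factors, and 10 of them are described here: KLF2, KLF3, KLF4, KLF5, KLF6, KLF7, KLF9, KLF10, KLF11 and KLF12. They were taken from a microarray study of MDA-MB-231 cells, an established human triple-negative breast cancer line that carries a mutant p53, grown for 2 days on a stiff or a soft substrate in the same serum-containing medium. Each substrate had 4 biological replicas with the letters A, B, C and D, and each replica's total RNA went on an Affymetrix array of its own. The sources used here give neither the stiffness nor the material of the substrates, nor whether the replicas were separate cultures. The errors therefore rest on the spread between these 8 arrays. Errors after ± are moderated SE, in which a probe set's own variance is drawn toward that of all probe sets. The title of the series places the comparison in a study of how mechanical cues act on mutant p53 through the mevalonate pathway and RhoA.

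The 10 genes are 10 of the 17 KLF genes named on the array, and they were selected on the soft against stiff contrast of these same arrays, with its results known. Their differences, and the calls made on them below, are therefore a description and no independent test. Every probe set whose single gene symbol was a member was kept, which gave 36 of the 50 KLF probe sets and 36 of 54613 probe sets in all. Each gene is described first by its leading probe set, the one with the highest mean over the 8 arrays. Values are log2 RMA signals, so a difference of 1 is a doubling, and levels of different probe sets cannot be ranked against each other. In RNA from whole cultures, a lower signal from fewer expressing cells cannot be told apart from less RNA per cell.

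KLF proteins share a carboxy-terminal block of C2H2 zinc fingers that binds GC-rich and CACCC elements, and differ in the amino-terminal region that recruits coactivators or corepressors. KLF2 and KLF4 are best known from endothelium, where laminar flow and statins raise them through the kinase ERK5 and MEF2 factors. KLF4 and KLF5 often act in opposite directions on epithelial growth, KLF6 is a rapidly inducible factor, KLF9 is a glucocorticoid-induced gene, KLF10 and KLF11 are TGF-beta-inducible, and KLF3 and KLF12 bind the corepressor CtBP.

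Motifs linked to some of these inputs were looked for in the promoters. RefSeq promoter windows of GRCh38.p14, from 250 bases before to 50 bases after a start, were found for 8 of the 10 genes. The 250 upstream bases of KLF2 (chr19:16324576-16324825, plus strand), KLF4 (chr9:107489770-107490019, minus strand) and KLF6 (chr10:3785210-3785459, minus strand) are printed 5′ to 3′ on the gene's strand because KLF2 was the gene with the largest leading difference and KLF4 and KLF6 were the genes whose stiff arrays divided most. A 30-base stretch at a listed start of KLF12 (chr13:74027059-74027088, minus strand) is printed for its MEF2 motif. Capitals mark the GC box GGGCGG on either strand and the MEF2 motif.
KLF2: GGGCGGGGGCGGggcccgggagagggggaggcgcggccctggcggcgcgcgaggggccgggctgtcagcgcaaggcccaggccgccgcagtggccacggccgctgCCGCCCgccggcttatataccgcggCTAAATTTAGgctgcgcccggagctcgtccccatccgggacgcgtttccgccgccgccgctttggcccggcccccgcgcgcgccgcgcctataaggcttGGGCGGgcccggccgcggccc
KLF4: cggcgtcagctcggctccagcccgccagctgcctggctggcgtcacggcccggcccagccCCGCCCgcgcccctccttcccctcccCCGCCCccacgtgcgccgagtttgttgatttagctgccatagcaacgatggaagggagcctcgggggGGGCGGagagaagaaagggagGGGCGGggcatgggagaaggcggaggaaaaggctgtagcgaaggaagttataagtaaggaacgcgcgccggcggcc
KLF6: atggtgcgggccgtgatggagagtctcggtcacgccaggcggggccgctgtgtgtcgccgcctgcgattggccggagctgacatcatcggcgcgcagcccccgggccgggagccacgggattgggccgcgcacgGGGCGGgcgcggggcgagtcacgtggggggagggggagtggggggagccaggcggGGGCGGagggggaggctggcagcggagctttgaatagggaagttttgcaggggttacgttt
KLF12: ttattctactCTATTTTTAAgagaaacact

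The KLF2 stretch was 80% G or C and held 4 GC boxes and 1 MEF2 motif, CTAAATTTAG, at -120 to -111 from the start. A MEF2 motif was present in 2.99% of the 35116 RefSeq promoters of the same length, and among the members it was found at KLF2 and at 1 of 4 listed starts of KLF12, where it lay at -190 to -181. The KLF4 stretch was 69.2% G or C with 4 GC boxes, and the KLF6 stretch was 72.4% G or C with 2. GC boxes are common, with 45% of all promoters holding GGGCGG on either strand, and CACCC was in 59.9%. The palindrome CACGTG, in 7.26% of promoters, was present at KLF4, KLF6, KLF7 and KLF11. A CArG box, the element bound by SRF and present in 1.29% of promoters, was matched at 1 of 4 listed starts of KLF7. The glucocorticoid response element, in 0.179% of promoters, was not matched in any member's window. Both strands were searched, and GC boxes and CACCC matches can overlap. A match describes letters in a window and is not evidence of binding.

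The line's identity was checked on marker genes. The 4 genes that mark MDA-MB-231 cells, VIM, CD44, CAV1 and AXL, had mean signals of 13.02 to 14.58. On soft, AXL fell by 0.23 (limma adjusted p = 0.0318), and CAV1, at -0.17, had every soft array below every stiff array but was not called. The 3 genes the line lacks, ESR1, PGR and CDH1, had 3.62 to 6.41. These were below 6.85, the 95th percentile of 15 genes of other tissues, which is used here as the background level. Of 6 endothelial markers 1 was above it, PECAM1 at 7.77, while CDH5 (4.22), VWF (5.96) and TIE1 (4.71) were below. PECAM1 rose by 0.49 on soft (limma adjusted p = 0.00211), by 1 of its 5 probe sets, and the other 5 markers were not called. The mean of the 6 ran from 5.28 to 5.50 over the stiff and from 5.32 to 5.44 over the soft arrays. No leukocyte or fibroblast marker measured, 4 of each, was above background. The first principal component, 40.4% of the variance, separated soft from stiff arrays. The second, 16.4%, set stiff A and B (21.43 and 16.29) apart from stiff C and D (-21.52 and -11.81), a division no label accounts for. KLF results are therefore also given against either pair of stiff arrays, and what part the division has in them was not tested.

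Over the 36 member probe sets, 14 were called higher on soft and 0 lower (limma over all probe sets, Benjamini-Hochberg adjusted p under 0.05). At an unadjusted p under 0.05 the same fit had 20 higher and 3 lower. Over the whole table, 4.64% of probe sets were called higher and 4.63% lower. At the same 36 probe sets every soft array was above every stiff array for 17, against 8.06% of all probe sets, and below every stiff array for 1, against 8.5%. The median difference was 0.28 for the members and 0.01 for all probe sets. Among the leading probe sets, those of KLF2, KLF3, KLF4, KLF7 and KLF9 were called higher and 0 were called lower, beside 4.39% and 5.93% of the 19775 genes. These counts restate the contrast on which the genes were chosen. The 14 member calls comprised 8 of the 18 probe sets above background and 6 of the 18 below it. The matching shares over all probe sets were not counted in this fit.

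**Figure D1:**
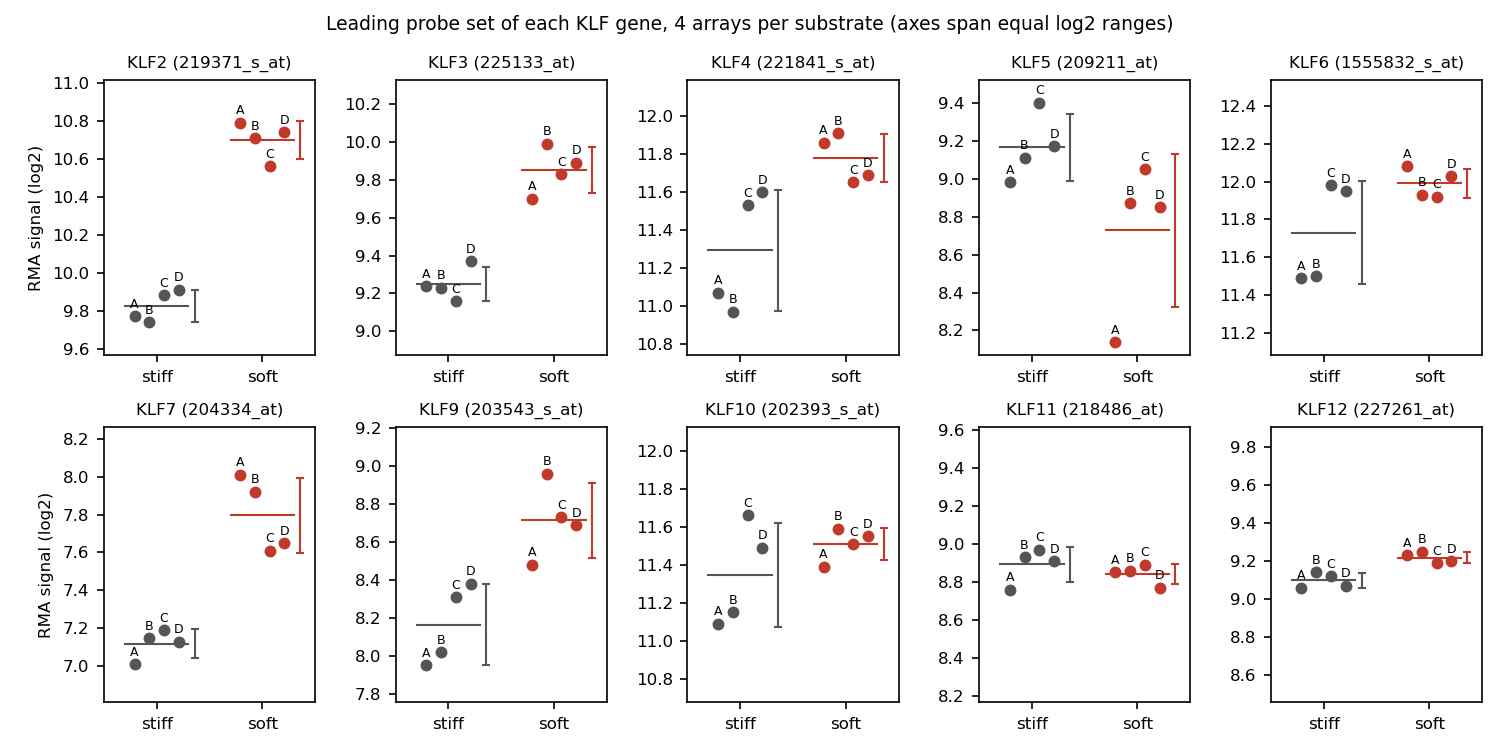
Log2 RMA signal of the leading probe set of each KLF gene on the 4 stiff (grey) and 4 soft (red) arrays, lettered by replica; lines are means, bars are SD, and all panels span the same log2 range. KLF2, KLF3 and KLF7 show separate groups with a tight stiff group, while in KLF4, KLF6, KLF9 and KLF10 stiff A and B lie below stiff C and D.

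KLF2, the flow-responsive factor, had the largest difference of the leading probe sets. Its signal was 9.77, 9.74, 9.88 and 9.91 on stiff A to D and 10.79, 10.71, 10.56 and 10.74 on soft A to D (219371_s_at). The lowest soft array was thus well above the highest stiff array, and the mean difference was 0.88 ± 0.07 (moderated SE, n = 4 per group), a 1.83-fold higher signal. The second probe set, 226646_at, was below background at 5.53, 5.58, 5.70 and 5.52 on stiff and 6.17, 5.76, 5.71 and 5.97 on soft. Its groups just failed to touch and its difference of 0.32 ± 0.10 was not called. With only stiff A and B as the control the leading difference was 0.95, and with only stiff C and D it was 0.81.

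KLF4, the close relative of KLF2, was higher on soft by both of its probe sets, but its size depended on the stiff arrays. The leading probe set, 221841_s_at, read 11.07 and 10.97 on stiff A and B, 11.53 and 11.60 on stiff C and D, and 11.86, 11.91, 11.65 and 11.69 on soft. All soft arrays were above all stiff arrays, yet soft C stood only just above stiff D, and the difference was 0.49 ± 0.14. Against stiff A and B it was 0.76 and against stiff C and D it was 0.21. The call was lost without stiff A (0.41), stiff B (0.38), soft A (0.46), soft B (0.44), soft C (0.53) or soft D (0.51), as well as after median centring (0.46). The dimmer probe set, 220266_s_at, had 7.66, 7.79, 8.31 and 8.31 on stiff and 8.87, 8.71, 8.72 and 8.64 on soft. Here the gap between the groups was wider, with a difference of 0.72 ± 0.14 over all arrays, 1.01 against stiff A and B and 0.42 against stiff C and D.

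KLF3, a repressor that works through CtBP, was higher on soft by all 4 of its probe sets. The leading probe set, 225133_at, had 9.24, 9.23, 9.16 and 9.37 on stiff and 9.70, 9.99, 9.83 and 9.89 on soft. The stiff arrays showed no division here, and the difference was 0.60 ± 0.08, a 1.52-fold higher signal, with 0.62 against stiff A and B and 0.59 against stiff C and D. The other 3 probe sets differed by 0.54 (225140_at), 0.52 (219657_s_at) and 0.32 (222913_at). All 4 had every soft array above every stiff array.

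KLF12, a CtBP-binding repressor like KLF3, gave 8 probe sets that did not move together. Its leading probe set, 227261_at, had 9.06, 9.14, 9.12 and 9.07 on stiff and 9.23, 9.25, 9.19 and 9.20 on soft. These were the tightest groups of any leading probe set, they did not overlap, and the difference of 0.12 ± 0.06 was not called. A second bright probe set, 214276_at, had 8.08, 8.11, 8.11 and 8.09 on stiff and 7.78, 7.97, 7.99 and 7.84 on soft. It was the only member probe set with every soft array below every stiff array, by -0.20 ± 0.07, and was not called. The single call was a probe set below background, 206965_at, with 5.83, 5.82, 6.11 and 5.85 on stiff and 6.35, 6.48, 6.38 and 6.51 on soft, a difference of 0.53 ± 0.08. The remaining 5 lay within these values.

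KLF7, which is known for its role in neuronal development and adipocyte biology, was higher on soft by 4 of 5 probe sets. The leading probe set, 204334_at, had 7.01, 7.15, 7.19 and 7.13 on stiff and 8.01, 7.92, 7.61 and 7.65 on soft. The groups were clearly separate, with soft A and B above soft C and D, and the difference was 0.68 ± 0.09 or 1.60-fold. It was 0.72 against stiff A and B and 0.64 against stiff C and D. The other called probe sets, all below background, differed by 0.77 (240432_x_at), 0.54 (238482_at) and 0.48 (1555420_a_at), and 238517_at differed by 0.09 ± 0.09.

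KLF9, the glucocorticoid-inducible factor, held the largest difference of any member probe set. This was 203542_s_at, with 7.10, 6.76, 6.93 and 7.11 on stiff and 8.17, 8.03, 7.68 and 8.07 on soft. All soft arrays were above all stiff arrays, and the difference was 1.01 ± 0.11, a 2.02-fold higher signal. The brighter, leading probe set 203543_s_at had 7.95, 8.02, 8.31 and 8.38 on stiff and 8.48, 8.96, 8.73 and 8.69 on soft. Its groups were separated by the small step from stiff D to soft A, and it differed by 0.55 ± 0.12, by 0.73 against stiff A and B, by 0.37 against stiff C and D, and by 0.50, no longer called, without stiff B. For 203542_s_at the values were 1.06 and 0.97, so it kept its size against either pair. The other 3 probe sets were below background and not called, at -0.25 (228474_s_at), -0.04 (203541_s_at) and 0.34 (230636_s_at).

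**Figure D2:**
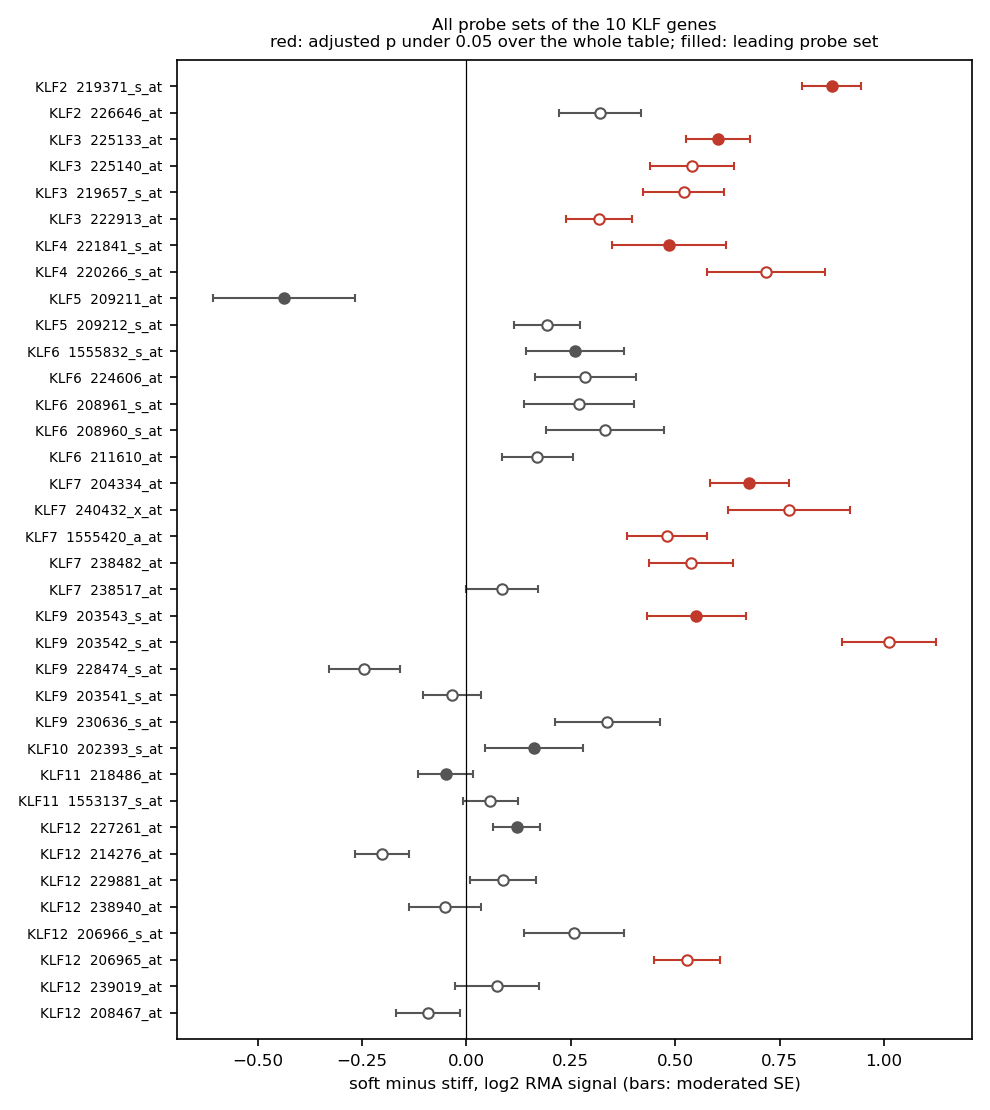
Soft minus stiff difference in log2 RMA signal for all 36 KLF probe sets, grouped by gene and ordered within a gene by mean signal; bars are moderated SE, red marks an adjusted p under 0.05 over the whole table and filled points are leading probe sets. All called probe sets lie right of 0, and the probe sets of KLF5, KLF9 and KLF12 point in both directions.

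KLF5, which promotes growth of basal epithelial cells, had a leading probe set with a lower mean on soft, though with wide scatter. On 209211_at the stiff arrays had 8.98, 9.11, 9.40 and 9.17 and the soft arrays 8.14, 8.87, 9.05 and 8.85. Soft A was far below the rest and soft C was within the stiff range, and the difference of -0.44 ± 0.17, or -0.24 without soft A, was not called. The other probe set, 209212_s_at, went the opposite way, with 8.63, 8.36, 8.53 and 8.56 on stiff and 8.69, 8.64, 8.64 and 8.88 on soft. Those groups did not overlap, by a margin as small as 1 step of the 2-decimal values, and the difference of 0.19 ± 0.08 was not called. The array values thus give no single direction for KLF5.

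KLF6, the rapidly inducible family member, was read by 5 probe sets with the same division of the stiff arrays. The leading one, 1555832_s_at, had 11.49 and 11.50 on stiff A and B, 11.98 and 11.95 on stiff C and D, and 12.08, 11.93, 11.92 and 12.03 on soft. Stiff C and D were inside the soft range, and the difference over all arrays was 0.26 ± 0.12. It was 0.50 against stiff A and B and 0.03 against stiff C and D. The 5 probe sets differed by 0.17 to 0.33, none was called, and in all 5 stiff A and B were both below stiff C and D. The leading probe set was called when stiff A and B were the only controls and not when stiff C and D were.

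KLF10 and KLF11, the TGF-beta-inducible pair, were not called by any probe set. KLF10 (202393_s_at, its only one) had 11.09 and 11.15 on stiff A and B, 11.66 and 11.49 on stiff C and D, and 11.39, 11.59, 11.51 and 11.55 on soft. Like KLF6 its soft arrays lay beside stiff C and D, with a difference of 0.16 ± 0.12 over all arrays, 0.39 against stiff A and B and -0.07 against stiff C and D. The leading probe set of KLF11, 218486_at, had 8.76, 8.93, 8.97 and 8.91 on stiff and 8.85, 8.86, 8.89 and 8.77 on soft. The groups overlapped fully, at -0.05 ± 0.07, and its other probe set was below background at 0.06 ± 0.07.

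The division of the stiff arrays was seen in part of the family. Stiff A and B were both below stiff C and D in the leading probe sets of 6 of the 10 members, KLF2, KLF4, KLF5, KLF6, KLF9 and KLF10, and in 22.1% of all leading probe sets. For KLF2 that step was small, 0.14, beside a soft against stiff difference of 0.88. For KLF4 it was 0.55, for KLF6 0.47 and for KLF10 0.46, in each case more than the difference between substrates. Among 15 immediate early genes, which respond within minutes to serum or stress and include FOS, EGR1 and ATF3, stiff A and B were both below stiff C and D in 14, with a median step of 0.33. The median soft minus stiff difference of that list was 0.04 over all stiff arrays, 0.19 against stiff A and B and -0.14 against stiff C and D. By leading probe set limma called none of the 15 over all arrays, though 1 of the 4 probe sets of JUN was called higher (by 0.60), and 2 leading ones were higher and 0 lower at an unadjusted p under 0.05. Against stiff A and B alone, 3 were called higher and 0 lower, beside 1616 and 1043 of all 54613 probe sets. Against stiff C and D alone, 0 were called higher and 3 lower, beside 1274 and 914 of all 54613 probe sets. When only probe sets above background were fitted, 2 of 13 were called higher and 0 lower. That fit called 2873 of its 19803 probe sets higher and 3544 lower. The mean of the list ran from 8.92 to 9.50 over the stiff arrays and from 9.23 to 9.37 over the soft arrays, so the soft range lay inside the stiff range. Its part in the KLF values was not tested.

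**Figure D3:**
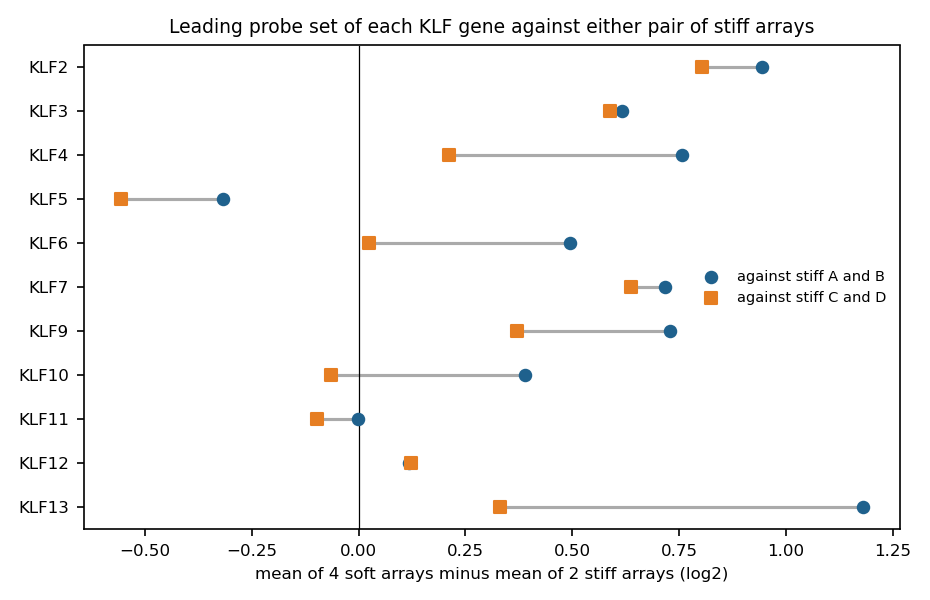
Mean of the 4 soft arrays minus the mean of 2 stiff arrays (log2) for the leading probe set of each member and of KLF13, against stiff A and B (circles) and against stiff C and D (squares). KLF2, KLF3 and KLF7 keep a difference of at least 0.59 against either pair, while KLF6 and KLF10 fall to 0.03 and -0.07 against stiff C and D.

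Of the 7 KLF genes outside the set, KLF13 was called. Its leading probe set, 225390_s_at, had 6.88 and 6.78 on stiff A and B, 7.71 and 7.65 on stiff C and D, and 8.23, 8.10, 7.75 and 7.96 on soft. KLF13 shows the division of the stiff arrays more strongly than any member, with a difference of 0.76 ± 0.20 (limma adjusted p = 0.0409) that was 1.18 against stiff A and B and 0.33 against stiff C and D. The call was lost without stiff A (0.63), stiff B (0.60), soft A (0.68), soft B (0.72) or soft D (0.77), against stiff C and D, and in 10 of 19 alternatives in all. A second KLF13 probe set rose by 0.59 (limma adjusted p = 0.0165) and 2 dim ones were not called. KLF1, KLF8, KLF14, KLF15, KLF16 and KLF17 had leading differences of -0.13 to 0.26, with no call.

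Counts for the lists that follow are by leading probe set. The related SP factors, which recognise the same GC boxes, differed little: of 8 measured genes 1 was called higher and 0 lower (1 lower at an unadjusted p under 0.05 in limma), and the median difference was -0.06, beside 0.01 over all leading probe sets. The one was SP1, the ubiquitous GC-box activator, at 0.31 ± 0.08 (limma adjusted p = 0.0289), with the call lost without any 1 stiff array (0.30 to 0.31), without soft A (0.31) or without soft D (0.24). Of 9 cofactors limma called no leading probe set (at an unadjusted p under 0.05, 2 were higher and 1 lower), with CTBP1 and CTBP2, the corepressors of the CtBP family, at 0.10 and 0.02. Among their dimmer probe sets, 2 of 3 for SIN3B and 1 of 4 for CREBBP were called higher. When only probe sets above background were fitted, 1 of the 9 leading ones was called higher and 1 lower. That fit called 2873 of its 19803 probe sets higher and 3544 lower. Of 4 ubiquitin ligase genes known to turn over KLF proteins, 2 were called higher and 0 lower, with a median of 0.12 (at an unadjusted p under 0.05, limma gave 1 lower). WWP1, which targets KLF2 and KLF5, rose by 0.34 ± 0.06 (limma adjusted p = 0.00917) by 1 of its 2 probe sets. SMURF1 rose by 0.27 ± 0.07 (limma adjusted p = 0.0399) by 1 of its 5, and kept the call only without stiff C among the 8 fits that left out 1 array, which gave 0.22 to 0.32. FBXW7, a ligase subunit for KLF5, had a difference of -0.28 ± 0.10 (limma adjusted p = 0.114) by its leading probe set, which was called without soft B (-0.36) and among probe sets above background. Another of its 4 probe sets was called higher, so FBXW7 has no single direction.

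The ERK5 and MEF2 genes upstream of KLF2 and KLF4 had 3 of 10 measured members called higher and 0 lower, with a median of 0.08. The list was not sorted by whether a gene raises or lowers KLF2 and KLF4, so its counts give no direction of input. Over all leading probe sets, 4.39% were called higher and 5.93% lower. At an unadjusted p under 0.05 limma also gave 0 lower. MEF2C, a MADS-box factor, had 9.57, 9.53, 9.74 and 9.89 on stiff and 10.37, 10.35, 10.30 and 10.31 on soft. It rose by 0.65 ± 0.08 (limma adjusted p = 0.00116), with 2 of its 3 probe sets called. MEF2A, a close relative, had 9.88, 9.90, 9.57 and 9.63 on stiff and 10.25, 10.29, 10.21 and 10.18 on soft. Its stiff arrays divided the other way from those of KLF4 and KLF6, with A and B higher. MEF2A rose by 0.49 ± 0.08 (limma adjusted p = 0.00557), with 2 of 4 probe sets called. The remaining call was HDAC5, at 0.34 ± 0.07 (limma adjusted p = 0.013), by 1 of its 2 probe sets. HDAC7 had a leading difference of -0.06 that was not called, while 1 of its 2 probe sets was called higher. MAPK7, which encodes ERK5, had a difference of 0.07 and MEF2D one of 0.09, neither called. Transcript levels do not measure the activity of ERK5.

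The 7 vascular targets of KLF2 and KLF4 gave 1 call, lower on soft, with a median of 0.005, and 2 of the 7 were above background. EDN1, which encodes endothelin-1 and is lowered by KLF2 in endothelium, had 7.66, 7.76, 7.87 and 7.76 on stiff and 7.09, 7.11, 7.20 and 7.13 on soft. It fell by 0.63 on the log2 scale (SE 0.06, limma adjusted p = 0.000397), and all 3 of its probe sets were called lower. THBD, the other target above background, had a difference of 0.07 ± 0.07, with 0 of its 3 probe sets called. What part KLF2 has in these values was not tested. Of 16 epithelial and growth targets of KLF4, KLF5 and KLF6, 2 were called higher and 1 lower, with a median of -0.05. The first was CDKN1A, the cell cycle inhibitor p21, with 9.45, 9.31, 9.50 and 9.51 on stiff and 10.13, 10.06, 9.87 and 9.93 on soft, a rise of 0.56 ± 0.08 (limma adjusted p = 0.00184). KRT19, an epithelial keratin, rose by 0.35 ± 0.07 (limma adjusted p = 0.0106) by 1 of its 2 probe sets. By dimmer probe sets, 1 of 2 for CCND1 and 1 of 9 for EGFR were called higher, and 1 of 2 for CDH1 lower. CCNB1, a mitotic cyclin, fell by 0.34 (limma adjusted p = 0.0278) and lost the call without stiff A (-0.31), stiff B (-0.32), soft A (-0.27) or soft B (-0.33).

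The glucocorticoid and TGF-beta lists cover the inputs known for KLF9, KLF10 and KLF11. Of 9 glucocorticoid response genes 1 was called higher and 1 lower, with a median of 0.01. TSC22D3, which encodes the anti-inflammatory protein GILZ, had 9.38 and 9.32 on stiff A and B, 10.51 and 10.63 on stiff C and D, and 11.47, 11.24, 10.78 and 11.09 on soft. All soft arrays were above all stiff arrays, but the step of 1.22 between the pairs of stiff arrays exceeded the difference itself, 1.19 ± 0.28 (limma adjusted p = 0.0256), or 0.58 against stiff C and D. The call was lost without stiff A (0.99), stiff B (0.97), soft A (1.08), soft B (1.15) or soft D (1.20). FKBP5, another receptor target, fell by 0.34 (limma adjusted p = 0.014) by 1 of its 3 probe sets. NR3C1, the receptor, had a difference of 0.13 that was not called. Of 10 genes of the TGF-beta pathway 0 were called higher and 1 lower by limma, with a median of 0.12, by leading probe set, and 4 were higher at an unadjusted p under 0.05. Among probe sets above background, 3 of 9 were called higher, beside 2873 of the 19803 probe sets fitted. Above the table median, 2 of 9 were called higher, beside 3129 of the 27300 fitted. A dimmer probe set of SMAD3 was also called higher, 1 of its 4. TGFB2, a ligand, fell by 0.65 (SE 0.08, limma adjusted p = 0.000837), with 4 of its 5 probe sets called lower, and TGFB1 had a difference of 0.25 that was not called.

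**Figure D4:**
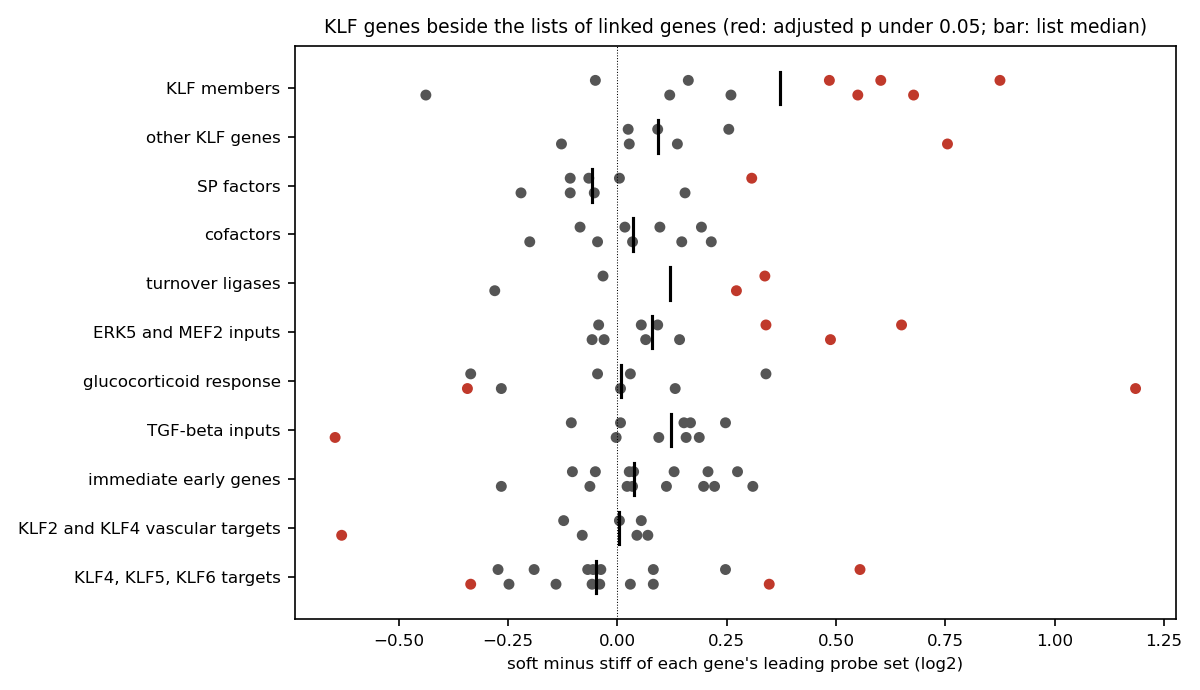
Soft minus stiff difference (log2) of the leading probe set of each gene in the KLF set and in the lists of linked genes; red points have an adjusted p under 0.05 and black bars are list medians. The KLF median of 0.37 lies to the right of every other list median; the members were chosen on this contrast, so the gap is descriptive.

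For each of the 5 members with a called leading probe set, the genes with the most similar profile were found as the smallest root mean square difference between mean-centred log2 profiles over the 8 arrays, among 9973 genes above background. For KLF2 they were OLFML2A (0.06), ALDH3A2 (0.07) and TIMP1 (0.08). For KLF3 they were WNT9A (0.06), WWTR1 (0.07) and CD58 (0.07), and for KLF4 they were PLD1 (0.05), CPEB2 (0.07) and CAMK1D (0.08). KLF7 lay nearest to TP53INP1 (0.09), RRAS (0.10) and POLD4 (0.10), and KLF9 to APCDD1L-DT (0.07), PDK4 (0.09) and MAL2 (0.10). All of these share the same 8 arrays, and the ranking carries no test.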

How the data were processed

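The authors deposited 1 table of log2 RMA signals, 1 value per probe set and array, with RMA named per the submitters' processing notes; the scale and the 2 decimals follow from the values themselves. The software that ran RMA, and its version, are not given in the sources used here. RMA equalises the arrays' distributions, so a shift common to all genes is removed. Of 54675 probe sets, 62 controls were left out. The platform annotation gave 1 symbol for 41091 of the rest, several for 1801 and none for 11721, and those with several were used for no gene.

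Soft and stiff arrays were compared with limma 3.58.1 in R 4.3.3 (lmFit and eBayes, two-sided, no covariate), with Benjamini-Hochberg adjustment over 54613 probe sets and a threshold of 0.05. The script was tested on simulated data for this comparison, with independent normal noise over 54613 probe sets. Of 100 probe sets changed by 0.5 it recovered 58% and of 100 changed by 1 it recovered 97%, with 7 false calls. In the data far more probe sets were called, 2535 higher and 2526 lower. The simulation also left out the division of the stiff arrays. Its rates therefore check the script and need not hold for the data. The number of arrays limits the precision. With 4 arrays a group, an exact permutation test of 1 value could not go below p = 0.0286. Correlations between arrays were 0.9932 to 0.9982 and no 2 arrays were identical. Some genes of the lists were not analysed here, and counts are over the genes measured.

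The members and the gene lists were chosen with earlier results of these data known. All member probe sets are described; of each list, up to 2 called genes per direction with the largest differences are named, beside genes that define a pathway and the marker genes. FOS, EGR1 and ATF3 were named to explain their list. JUN, SIN3B, CREBBP, SMAD3, HDAC5, HDAC7, THBD, CCND1 and EGFR were named after their values were seen. Alternatives covered scaling, filters on dim probe sets, the variance model, array weights, shared probes and the threshold. They also covered the replicate block, single arrays left out, either pair of stiff arrays and the averaging of each gene's probe sets.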

Additional observations from a re-analysis of the deposited data

Results flagged for a closer look

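In 5 of 72 groups of 4 arrays, 2 for each member probe set, 1 array stood far from the other 3, with a gap to its neighbour, as a share of the group's range, above Dixon's critical value. Chance alone sets apart about 1 in 20 such groups. None of the 5 was a leading probe set. For KLF3, 225140_at had 7.72 on soft B beside 7.46 to 7.49 on the other soft arrays, and 222913_at had 5.46 on stiff D beside 5.59 to 5.61. For KLF12, 206965_at had 6.11 on stiff C beside 5.82 to 5.85, and 208467_at had 5.12 on stiff A beside 5.36 to 5.39. For KLF11, 1553137_s_at had 3.99 on stiff A beside 3.86 to 3.88. The last 4 were below background.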

How the results depend on the processing

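KLF2, KLF3 and KLF7 kept their direction and their call in every alternative run (19, 20 and 20). Their differences were 0.60 to 0.95, 0.50 to 0.65 and 0.51 to 0.74. The lowest of each came from a run that averaged each gene's probe sets. By leading probe set the lowest were 0.81, 0.56 and 0.61. KLF9 kept its call in 17 of 19 (0.32 to 0.73, or from 0.37 by leading probe set) and KLF4 in 8 of 19 (0.21 to 0.76). The leading probe sets of KLF2, KLF4 and KLF9 are shared-probe sets, so the run without such sets is not among their 19. The other probe set of KLF2 was not called over all arrays. The count of 14 member probe sets called higher became 8 of 18 among those above background, 7 of 19 without shared-probe sets (_s_at and _x_at), 7 against stiff C and D only and 18 against stiff A and B only, 9 at an adjusted p under 0.01 and 11 to 15 when 1 array was left out. The count of 0 called lower became 1 among those above background or above the table median, and with the replicate block. It also became 1 at an adjusted p under 0.10, and stayed 0 when 1 array was left out. Over the whole table, 2873 of 19803 probe sets above background were called higher and 3544 lower. Above the table median 3571 of 27300 were called lower, and with the replicate block 1934 of 54613. Without shared-probe sets 1455 of 39114 were called higher. Against stiff C and D only, 1274 of 54613 were called higher, and against stiff A and B only, 1616. The count of 5 genes by leading probe set became 2 of 5 without shared-probe sets, 3 against stiff C and D only and 7 against stiff A and B only, 3 at an adjusted p under 0.01 and 3 to 5 when 1 array was left out, with 3 without stiff B.

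Deviations from the group means had same-letter correlations of 0.12, -0.12, 0.05 and -0.04 for A to D. On stiff these deviations carry the division of A and B from C and D. The correlations therefore cannot settle whether the letters mark pairs. With the replicate block, 13 member probe sets were called higher and 1, of KLF5, lower, and 5 leading probe sets were called; of the soft arrays, 1 correlated best with its own letter. With the block the leading probe set of KLF4 lost its call, while 220266_s_at kept its own (limma adjusted p = 0.0234). Against stiff C and D only, 220266_s_at was called as well (limma adjusted p = 0.031). No median of all probe sets moved by over 0.1 under another scaling. Dim probe sets, 18 of the 36, limit what can be said of the members they read.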
